A study of Mus musculus with 61 samples.

Results

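Slc2a1, Slc2a2, G6pc2, Abcc8, Kcnj11 and Txnip were followed through mouse pancreatic duct cells that carried Ngn3, Pdx1 and MafA in different combinations. These 6 genes of glucose uptake, glucose phosphorylation and the ATP-sensitive potassium (K-ATP) channel were chosen by name for what their proteins do, and not by a measured value. They are 6 of the 46078 genes in the count table and 6 of the 24004 genes that passed the filter on low counts. G6pc2 passed it through the Ngn3-positive libraries, since no Ngn3-negative library held more than 1 count of it in the samples used here.

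The samples were organoid cultures grown from ducts of C57BL/6 mice and infected with lentiviral vectors, each of which coupled a fluorescent protein to 1 transcription factor: GFP to Ngn3, LSSOrange to Pdx1 and tdTomato to MafA. All cultures also carried a Tet-On transactivator and were given doxycycline for 8 days to switch the vectors on, and cells of the same colours were then sorted in pools of 50 and sequenced. Cultures received either wild-type Ngn3 (WT) or the phospho-mutant 6SANgn3 (6SA), in which 6 serines had been changed to alanine, and each kind of culture gave cells positive for Pdx1, MafA, Pdx1+MafA, Ngn3+Pdx1, Ngn3+MafA and Ngn3+Pdx1+MafA. Of these 12 conditions, WT Pdx1, WT MafA, 6SA Pdx1 and 6SA Ngn3+Pdx1+MafA had 2 samples and the others 3, which made 17 Ngn3-positive and 15 Ngn3-negative samples. All replicate 3 samples were at passage 5 and all others at passage 2. The conditions with 2 samples lacked replicate 3, so many comparisons are not balanced in passage. The Ngn3-negative cells of a 6SA culture did not carry the green label of the mutant factor, so WT and 6SA name the culture there and not a factor. Uninfected cells and cells with Ngn3 alone were not analysed here. Nothing in the labels says whether replicates came from separate animals, so p-values measure the spread between these samples only.

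In a beta cell, glucose enters through facilitative transporters of the SLC2A family and is trapped in the cell as glucose-6-phosphate. Its metabolism raises ATP, which closes K-ATP channels built from the pore subunit Kir6.2 (Kcnj11) and the sulfonylurea receptor SUR1 (Abcc8). The membrane then depolarizes, voltage-gated calcium channels open, and insulin granules fuse with the membrane. Slc2a1 encodes GLUT1, a high-affinity transporter of many cell types, and Slc2a2 encodes GLUT2, the low-affinity transporter of rodent beta cells and of hepatocytes. G6pc2 encodes a glucose-6-phosphatase catalytic subunit of islets, which works against glucose phosphorylation, and Txnip encodes an arrestin-like protein that binds thioredoxin, lowers glucose uptake and is itself induced by glucose.

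Libraries from the same replicate (technical repeats) were summed, and the 32 samples then held between 2579583 and 19461008 gene counts, so that 3 counts corresponded to between 0.136 and 1.01 counts per 1000000 gene counts after TMM scaling (CPM). Neurog3, the gene of Ngn3, had 7.87 to 329 CPM in the Ngn3-positive samples and at most 0.788 CPM in the Ngn3-negative ones, as labelled. Mafa had at most 1 count in the 10 samples without the MafA vector, but it was low everywhere (up to 12.7 CPM), and 1 sample labelled Pdx1+MafA had none. Pdx1 did not separate the samples by label. Its mean was higher in each Pdx1 condition than in the matching MafA condition, but their ranges overlapped. It had 11.2 to 31.7 CPM in WT Pdx1 and 8.33 to 19.3 in WT MafA samples. In 6SA it had 21.8 to 48.4 CPM with Ngn3+Pdx1 and 3.21 to 30.6 with Ngn3+MafA. Reads of a vector and of the cell's own gene cannot be told apart for these factors. The summed CPM of 10 pan-endocrine markers was 536 to 13652 in Ngn3-positive and 1.32 to 8.48 in Ngn3-negative samples, and that of 10 duct markers was 3940 to 45454 and 48016 to 132228. Both sums separated the samples completely. The pools are bulk samples, so fewer cells of a kind and less RNA per cell cannot be told apart in any level given here.

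The table of RefSeq start-site windows used here (build GRCm38.p6) matched 4 of the 6 genes, and the 250 bases before the start are shown for them because the data compare genes that rose, fell or did not pass. Capitals mark motifs found by their letters on either strand: CAGATG, a form of the E-box that basic helix-loop-helix factors of the neurogenin and NeuroD kind bind; TGCTGA, the half-site of Maf factors, which reads TCAGCA on the other strand; and in Txnip a pair of CACGNG boxes 5 bases apart (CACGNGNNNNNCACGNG), the form of the carbohydrate response element. All windows are on the + strand.
G6pc2, second start, chr2:69219699-69219948: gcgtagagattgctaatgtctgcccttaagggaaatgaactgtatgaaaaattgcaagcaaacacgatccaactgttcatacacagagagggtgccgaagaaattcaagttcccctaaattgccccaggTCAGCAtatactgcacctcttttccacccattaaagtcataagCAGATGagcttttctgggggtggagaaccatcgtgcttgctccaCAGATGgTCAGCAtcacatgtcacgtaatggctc
Slc2a2, chr3:28697653-28697902: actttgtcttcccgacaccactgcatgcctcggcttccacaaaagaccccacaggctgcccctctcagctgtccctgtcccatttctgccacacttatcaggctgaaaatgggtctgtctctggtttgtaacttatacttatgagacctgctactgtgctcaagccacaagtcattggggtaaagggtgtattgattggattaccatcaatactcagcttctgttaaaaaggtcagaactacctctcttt
Slc2a1, chr4:119108495-119108744: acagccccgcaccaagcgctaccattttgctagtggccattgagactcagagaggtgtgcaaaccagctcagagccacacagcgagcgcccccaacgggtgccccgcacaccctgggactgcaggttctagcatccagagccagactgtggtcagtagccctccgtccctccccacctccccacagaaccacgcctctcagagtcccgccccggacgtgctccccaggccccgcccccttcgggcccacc
Txnip, chr3:96557707-96557956: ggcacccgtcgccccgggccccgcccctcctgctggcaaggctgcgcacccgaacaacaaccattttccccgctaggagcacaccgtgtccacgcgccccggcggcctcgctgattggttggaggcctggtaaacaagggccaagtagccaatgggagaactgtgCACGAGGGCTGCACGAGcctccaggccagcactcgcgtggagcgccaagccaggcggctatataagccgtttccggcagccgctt
G6pc2 held CAGATG at 2 places, beginning 78 and 34 bases before the start, and TGCTGA on the minus strand beginning 121 and 27 bases before it. The other 3 windows shown, and the window at the first annotated start of G6pc2, held neither of these. Over 32544 windows of 300 bases (250 before and 50 from the start), 17.13% held CAGATG, 19.48% held TGCTGA and 0.04916% held the CACGNG pair. These are matches of letters, not sites shown to be bound.

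**Figure D1:**
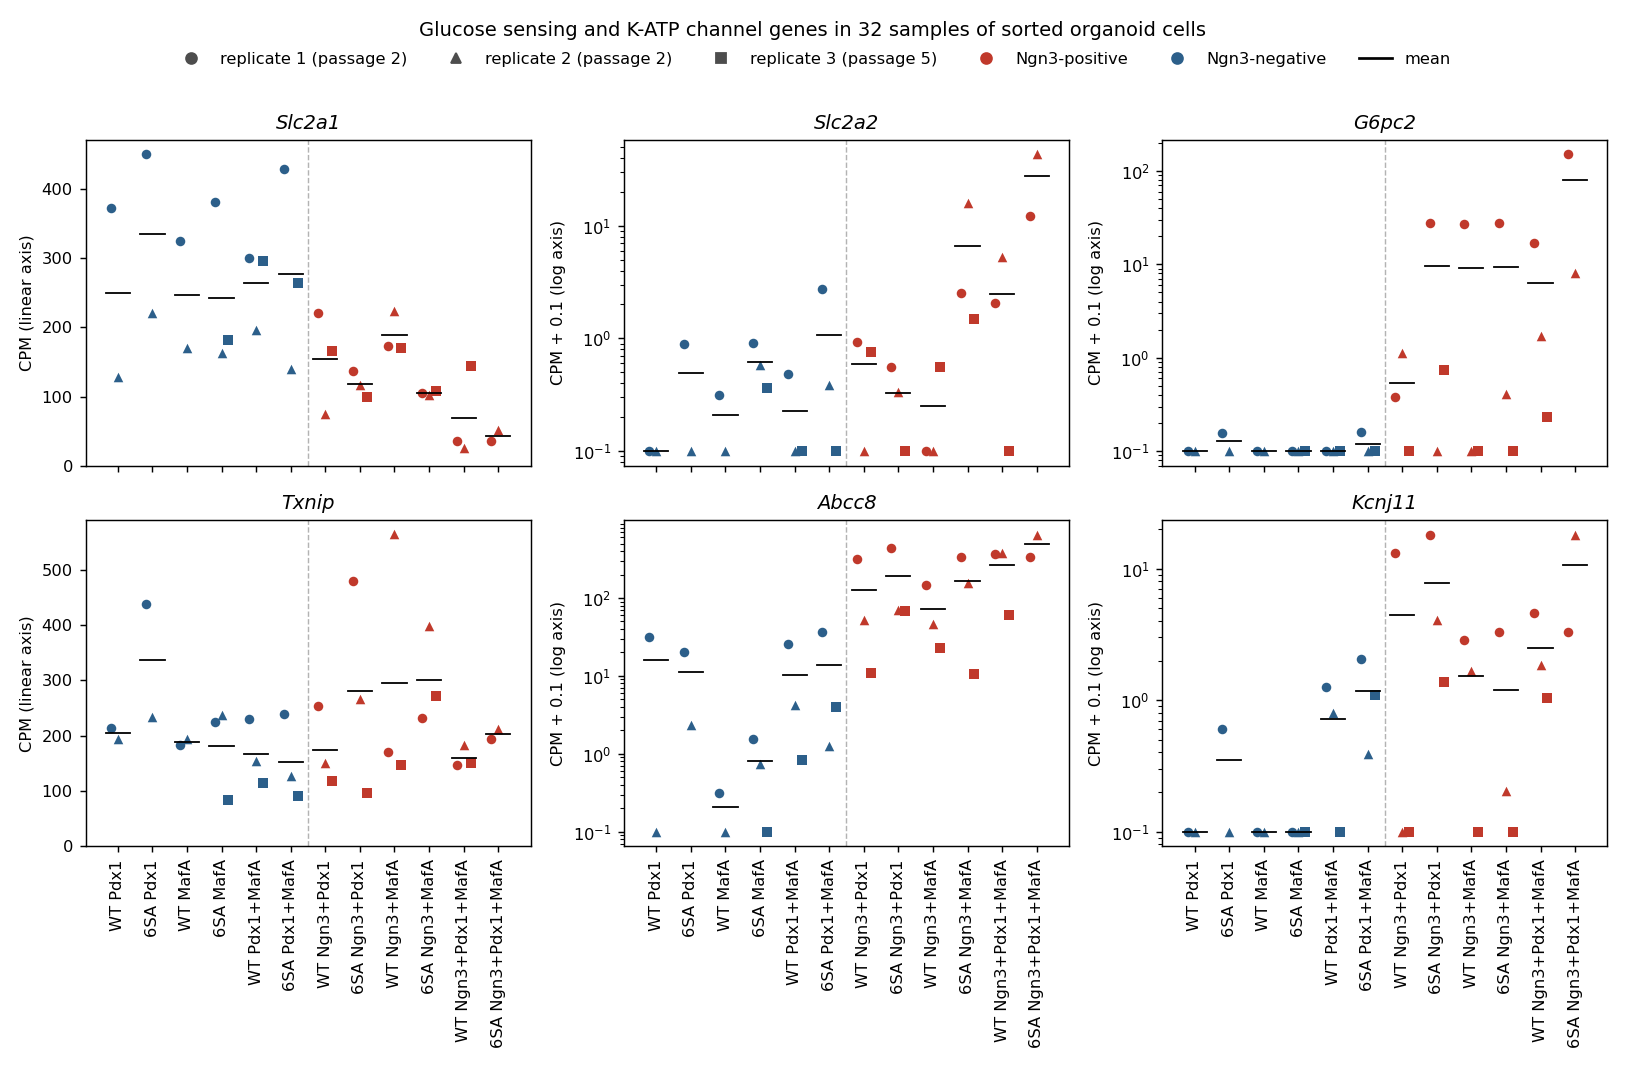
CPM of the 6 genes in each of the 32 samples, by condition, with Ngn3-negative conditions on the left (blue) and Ngn3-positive ones on the right (red) of the dashed line. Markers give the replicate and black bars the mean of a condition, Slc2a1 and Txnip are on linear axes and the others on log axes after adding 0.1. Abcc8 lay above every Ngn3-negative sample in 14 of 17 Ngn3-positive samples, whereas Txnip did so in 2 of 17.

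Slc2a1 was lower in cells with Ngn3, and lowest in cells with all 3 factors. It lies on chromosome 4 (119108711 to 119137983, + strand, GRCm38), where Mir1957a and the antisense genes Gm12867 and Gm12868 overlap it, and since the strand used in counting is not given, reads of such partners cannot be separated from it. Without Ngn3, WT cultures gave 372 and 128 CPM with Pdx1, 324 and 170.0 with MafA, and 300.5, 196 and 295 with both. The 6SA cultures gave 449.8 and 220.1 CPM with Pdx1, 381, 163 and 181 with MafA, and 428, 139.6 and 264 with both. These 15 samples had a median of 264 CPM, and replicate 1 was the highest of its condition in each of the 6 conditions.

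With Ngn3, Slc2a1 had a median of 109 CPM, and 10 of 17 samples were below all Ngn3-negative ones. The WT Ngn3+Pdx1 samples had 221, 74.2 and 166 CPM and the WT Ngn3+MafA samples 173, 224 and 169.7. The 6SA Ngn3+Pdx1 samples had 137, 117 and 99.0 CPM and the 6SA Ngn3+MafA samples 106, 103 and 109. With all 3 factors it had 36.4, 26.04 and 144 CPM in WT and 35.8 and 51.9 in 6SA. Only WT replicate 3 of the 5 triple-positive samples lay within the range of the cells with Ngn3 and 1 other factor. Of 14 pairs of samples with the same culture, replicate number and other factors, Slc2a1 was lower with Ngn3 in 13 and higher in 1.

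Averaged over the 6 pairs of conditions with the same culture and other factors, Slc2a1 changed with Ngn3 by a log2 fold change of -1.40 ± 0.24 (SE, 17 against 15 samples, edgeR adjusted p = 5.97e-05). WT Pdx1, 6SA Pdx1, WT MafA and 6SA Ngn3+Pdx1+MafA had no passage 5 sample, so their pairs also differ in passage. In this comparison 10.5% of all genes tested were lower and 11.1% higher. The drop was -2.30 ± 0.43 (adjusted p = 0.000422) where Ngn3 was added to Pdx1 and MafA, with 8.40% of all genes lower and 9.42% higher. It was -1.10 (95% interval -1.95 to -0.26, adjusted p = 0.236) beside Pdx1 and -0.79 (-1.60 to 0.02, adjusted p = 0.332) beside MafA, and neither passed. The call over all pairs held in each of 51 alternatives, and the call beside Pdx1 and MafA ended with library sizes from the spike-in RNA (log2 fold change -2.15, adjusted p = 0.063).

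Slc2a2 was close to undetected in most samples and reached its highest levels in 6SA cells with Ngn3 and MafA. It lies on chromosome 3 (28697903 to 28731359, + strand), with the antisense gene 1700112D23Rik over it. In Ngn3-negative cells it had 0 CPM in 7 of 15 samples and at most 2.65 CPM, in 6SA Pdx1+MafA replicate 1. The WT Ngn3+Pdx1 samples had 0.832, 0 and 0.656 CPM and the WT Ngn3+MafA samples 0, 0 and 0.454. These are within the Ngn3-negative range.

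The WT Ngn3+Pdx1+MafA samples had 1.94, 5.12 and 0 CPM of Slc2a2. In 6SA cultures it had 0.453, 0.233 and 0 CPM with Ngn3+Pdx1, 2.44, 15.8 and 1.38 with Ngn3+MafA, and 12.1 and 42.7 with all 3 factors. Only 4 of the 17 Ngn3-positive samples, all with MafA and 3 of them from 6SA cultures, were above every Ngn3-negative sample. Over all pairs the log2 fold change was 2.81 ± 0.86 (edgeR adjusted p = 0.018), and beside Pdx1 and MafA it was 4.29 ± 1.24 (adjusted p = 0.0164). Beside Pdx1 alone it was 2.38 (95% interval -1.12 to 5.89, adjusted p = 0.647), and beside MafA alone 1.75 (-1.20 to 4.70, adjusted p = 0.668).

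The Slc2a2 calls rested on few samples. The call over all pairs ended without replicate 2 (log2 fold change 1.94, adjusted p = 0.407), with the first technical repeat of each sample (adjusted p = 0.165), with spike-in library sizes (0.0714), with the newer form of the edgeR fit (0.081) and without WT Pdx1 replicate 1 (0.0559). Without replicate 3, or without WT Ngn3+MafA replicate 3 alone, WT Ngn3+MafA held no Slc2a2 count, as WT Pdx1 did on the other side, and the mean log fold change could not be tested. With 1 Ngn3 term shared by the conditions, an alternative chosen after seeing the data, it was 2.73 without replicate 3 (edgeR adjusted p = 0.0241) but 1.59 without replicate 2 (0.344). Beside Pdx1 and MafA it ended without 6SA Ngn3+Pdx1+MafA replicate 2 (adjusted p = 0.0735), without replicate 2 of every condition (0.438), with the first technical repeat (0.198) and with spike-in library sizes (0.066).

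G6pc2 was absent or at 1 count in all Ngn3-negative samples and rose to very different levels with Ngn3. It lies on chromosome 2 (69211073 to 69227841, + strand) with no other gene over it. Only 6SA Pdx1 replicate 1 and 6SA Pdx1+MafA replicate 1 held a count, 1 each (0.056 and 0.0589 CPM). In WT cultures it had 0.277, 1.01 and 0 CPM with Ngn3+Pdx1, 27.2, 0 and 0 with Ngn3+MafA, and 16.9, 1.61 and 0.133 with all 3 factors. In 6SA cultures it had 27.6, 0 and 0.637 CPM with Ngn3+Pdx1, 27.6, 0.311 and 0 with Ngn3+MafA, and 150.2 and 7.99 with all 3 factors. Replicate 1 was the highest sample in 5 of the 6 Ngn3-positive conditions, and 5 of the 17 samples held no count.

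The fitted log2 fold change of G6pc2 was 8.54 ± 1.57 over all pairs (edgeR adjusted p = 0.000322) and 9.90 ± 2.36 beside Pdx1 and MafA (adjusted p = 0.00528). Since G6pc2 passed the gene filter through its Ngn3-positive libraries, its being tested already favoured a higher level there. Its p-values are therefore not independent support. Because the reference samples held no more than 1 count, its mean was at least 43.9-fold higher with Ngn3 than the level of 3 counts per sample over all pairs, and at least 119-fold higher beside Pdx1 and MafA. Without 6SA Ngn3+Pdx1+MafA replicate 1, of whose 2215 counts 2112 came from 1 library, these bounds fell to 16.4-fold and 19.8-fold. Beside Pdx1 it was at least 12.2-fold higher (adjusted p = 0.376) and beside MafA at least 17.01-fold higher (adjusted p = 0.0649). Without replicate 1 of 6SA Ngn3+Pdx1 the mean beside Pdx1 was 0.374 CPM, under the level of 3 counts, and without replicate 1 of 6SA Ngn3+MafA the bound beside MafA was 8.54-fold. With the replicate number as a block within each kind of culture, both passed, at an adjusted p of 0.0141 beside Pdx1 and 0.000631 beside MafA.

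Without replicate 1, or without WT Ngn3+MafA replicate 1 alone, an Ngn3-positive condition held no G6pc2 count beside Ngn3-negative conditions with none, and with empty conditions on both sides the mean log fold change could not be tested. With the shared Ngn3 term, the log2 fold change without replicate 1 was 5.97 (edgeR adjusted p = 0.0148). WT Ngn3+MafA replicate 1, which held 27.2 CPM of G6pc2, also had the highest summed level of 6 mesenchyme markers (296 CPM, next sample 19.1) and of 5 hepatocyte-like markers (504 CPM, next 174). Of these lists Dcn, Lum and G6pc were at 0 in all Ngn3-positive samples. The part of those cells in its G6pc2 level was not tested. Beside Pdx1 and MafA, where that sample does not enter the contrast, G6pc2 passed in each of the 48 alternatives that gave it an adjusted p (at most 0.0408), which DESeq2 did not.

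Abcc8 rose with Ngn3 in every paired sample and was the most abundant of the rising genes. It lies on chromosome 7 (46104523 to 46180033, - strand), with Gm45486 antisense to it and Gm45487 on its own strand, and Kcnj11 lies beside it on the same strand (46093953 to 46100764). Without Ngn3, WT cultures gave 31.7 and 0 CPM with Pdx1, 0.214 and 0 with MafA, and 25.7, 4.18 and 0.722 with both. The 6SA cultures gave 20.3 and 2.25 CPM with Pdx1, 1.44, 0.648 and 0 with MafA, and 36.5, 1.16 and 3.86 with both. The 4 samples above 20 CPM were all replicate 1 and all carried Pdx1.

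With Ngn3, Abcc8 had 321, 52.6 and 10.7 CPM in WT Ngn3+Pdx1, 147, 45.6 and 22.7 in WT Ngn3+MafA, and 366, 376 and 60.6 in WT Ngn3+Pdx1+MafA. In 6SA it had 441, 69.2 and 68.3 CPM with Ngn3+Pdx1, 335, 157.5 and 10.5 with Ngn3+MafA, and 338 and 643 with all 3 factors. In all 14 same-numbered pairs the Ngn3-positive sample was higher. The 3 samples 6SA Ngn3+MafA, WT Ngn3+MafA and WT Ngn3+Pdx1 replicate 3 fell within the Ngn3-negative range.

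The log2 fold change of Abcc8 was 5.54 ± 0.79 over all pairs (edgeR adjusted p = 5.92e-06), and it passed in each of 51 alternatives, with 7.26 where WT Pdx1 replicate 1 was left out. It was 8.18 ± 1.63 beside MafA (adjusted p = 0.00214), where 2.50% of all genes were higher and 2.17% lower, and 4.91 ± 1.12 beside Pdx1 and MafA (adjusted p = 0.00277). Beside Pdx1, where the Ngn3-negative cells already held up to 31.7 CPM, it was 3.53 ± 1.23 (adjusted p = 0.185), and 1.32% of all genes tested rose and 0.171% fell. A replicate block within culture gave 4.32 there (adjusted p = 0.000148). The call beside MafA ended without replicate 2 (adjusted p = 0.143) and without WT MafA replicate 1 (0.0552), and that beside Pdx1 and MafA ended without replicate 2 (0.128). The Ngn3 effect beside Pdx1 differed from that beside MafA by -4.65 (95% interval -8.33 to -0.98), with an adjusted p near 1 over all genes, and 0.00% of genes passed in that test of the difference. Over the alternatives this difference ran from -6.50 to 0.499, so its sign was not fixed.

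Kcnj11, the pore subunit, rose with Ngn3 at a far lower level than its partner. Without Ngn3 it had 0 counts in 9 of 15 samples and otherwise 0.504 CPM in 6SA Pdx1 replicate 1, 1.15 and 0.697 in WT Pdx1+MafA replicates 1 and 2, and 1.94, 0.289 and 1.00 in 6SA Pdx1+MafA. It was at 0 in all 5 samples with MafA alone. With Ngn3 it had 13.1, 0 and 0 CPM in WT Ngn3+Pdx1, 2.74, 1.56 and 0 in WT Ngn3+MafA, and 4.54, 1.76 and 0.931 in WT Ngn3+Pdx1+MafA. In 6SA it had 17.8, 3.95 and 1.27 CPM with Ngn3+Pdx1, 3.18, 0.104 and 0 with Ngn3+MafA, and 3.19 and 17.9 with all 3 factors. The Ngn3-positive sample was the higher in 12 of 14 pairs and equal, at 0, in 2.

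The log2 fold change of Kcnj11 was 5.29 ± 1.10 over all pairs (edgeR adjusted p = 0.000951). It was 6.61 ± 2.09 beside Pdx1 (adjusted p = 0.134), 6.66 ± 2.20 beside MafA (adjusted p = 0.092) and 2.59 ± 1.33 beside Pdx1 and MafA (adjusted p = 0.188). With the replicate block within culture it passed beside Pdx1 (6.93, adjusted p = 0.0132) and beside MafA (7.11, adjusted p = 0.0152). Against the level of 3 counts per sample, the mean beside MafA was at least 2.34-fold higher, and 1.38-fold without 6SA Ngn3+MafA replicate 1. The call over all pairs ended without replicate 2 (adjusted p = 0.052), and without WT Ngn3+Pdx1 replicate 1 that condition was empty, as were Ngn3-negative ones, and the mean log fold change could not be tested. The shared Ngn3 term gave 3.79 without replicate 1 (adjusted p = 0.0271) and 3.98 without replicate 2 (0.0593). Per kilobase of exon, the mean level of Abcc8 was 25.2 CPM with and 1.06 without Ngn3, and that of Kcnj11 was 1.15 and 0.101.

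The 6SA Ngn3+Pdx1 replicate 1 sample, with 17.8 CPM of Kcnj11, 441 of Abcc8 and 27.6 of G6pc2, also had the highest sum of 4 endothelial markers (27.0 CPM, next sample 3.36). Without it the log2 fold changes over all pairs were 4.998 for Kcnj11 (edgeR adjusted p = 0.00169), 5.29 for Abcc8 (7.88e-06) and 7.67 for G6pc2 (0.000537).

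Txnip was abundant everywhere and did not pass any comparison that added Ngn3. It lies on chromosome 3 (96557957 to 96561883, + strand), with Gm15441 antisense to it. Without Ngn3, WT cultures gave 215 and 194 CPM with Pdx1, 183 and 195 with MafA, and 229.8, 155 and 116 with both. The 6SA cultures gave 438 and 234 CPM with Pdx1, 225, 237 and 84.1 with MafA, and 239, 127 and 90.4 with both. With Ngn3 it had 254, 151 and 119 CPM in WT Ngn3+Pdx1, 171, 565 and 147 in WT Ngn3+MafA, and 147, 183 and 151 in WT Ngn3+Pdx1+MafA. In 6SA it had 479, 267 and 96.0 CPM with Ngn3+Pdx1, 232, 398 and 273 with Ngn3+MafA, and 195 and 213 with all 3 factors.

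Both groups of Txnip values had a median of 195 CPM, and the Ngn3-positive sample was the higher in 10 of 14 pairs. The log2 fold change over all pairs was 0.21 ± 0.23 (95% interval -0.26 to 0.68, edgeR adjusted p = 0.693), and with spike-in library sizes its sign turned (-0.02). Beside Pdx1 it was -0.24 (-1.08 to 0.59), beside MafA 0.68 (-0.12 to 1.49), and beside both 0.18 (-0.61 to 0.98). Per kilobase, Txnip had a mean of 76.1 CPM with and 63.2 without Ngn3, and Slc2a1 had 33.4 with and 76.3 without it.

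**Figure D2:**
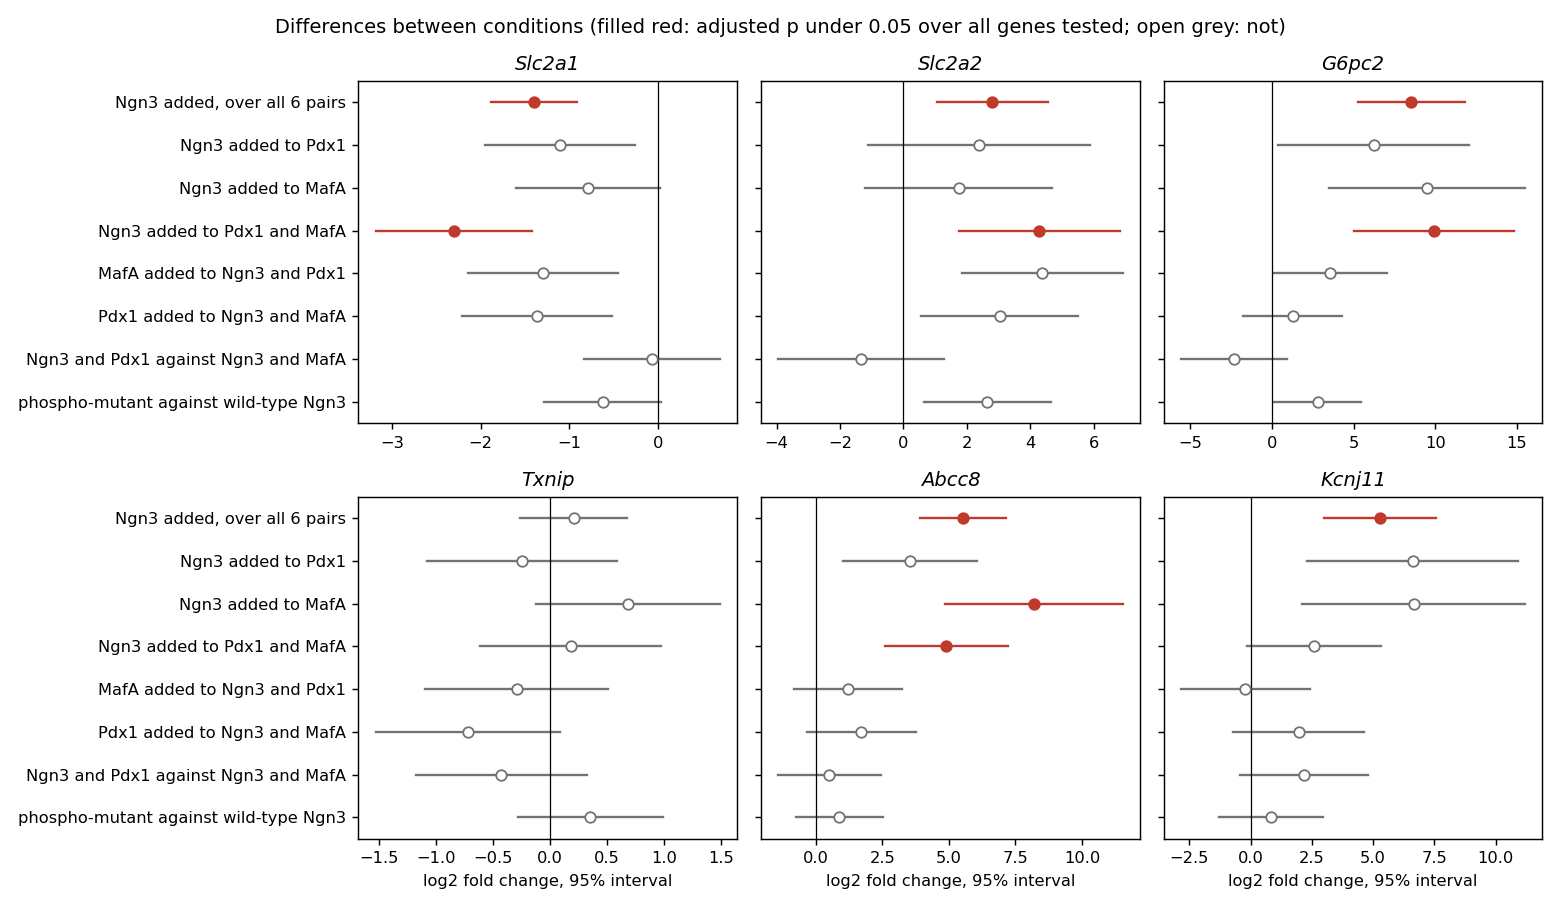
Log2 fold change of each gene in 8 comparisons, with 95% intervals from the edgeR fit, filled red where the adjusted p over all 24004 genes was under 0.05 and open grey otherwise. Slc2a1 lay left of 0 and Abcc8 right of 0 in each of the 4 comparisons that added Ngn3, and the calls are in the mean over all pairs, in Abcc8 beside MafA and in 4 genes beside Pdx1 and MafA.

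Adding Ngn3 moved 5 of the 6 genes over all pairs, 4 higher (with 11.1% of all genes) and 1 lower (10.5%). Among those higher, G6pc2 had passed the gene filter through its Ngn3-positive libraries. Beside Pdx1 and MafA 4 moved (9.42% of all genes higher and 8.40% lower), and beside MafA 1 moved (2.50% and 2.17%). Beside Pdx1 0 moved by the edgeR test (1.32% and 0.171%), where 4 of the 6 and 12.1% of all genes had an unadjusted p under 0.05. DESeq2 called 2 of the 6 beside Pdx1, Abcc8 and Kcnj11, among 939 genes in all, and a passage term in the edgeR fit called the same genes among 730. With the replicate block within culture, G6pc2, Abcc8 and Kcnj11 passed beside Pdx1, among 1051 genes, and beside MafA, among 2068. The comparisons beside Pdx1, beside MafA and beside both share no samples with each other, whereas the mean over all pairs uses all of them. Read against the share of all genes called, the 0 beside Pdx1 in the main fit came with few calls among all genes too.

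The addition of the other partner factor was then compared in cells that already had Ngn3. Adding MafA to Ngn3 and Pdx1 gave log2 fold changes of 4.38 for Slc2a2 (95% interval 1.84 to 6.92, edgeR adjusted p = 0.0642) and -1.29 for Slc2a1 (-2.14 to -0.45, adjusted p = 0.109). None of the 6 genes passed there, with 1.88% of all genes passing, and 3 of the 6 and 15.3% of all genes had an unadjusted p under 0.05. Adding Pdx1 to Ngn3 and MafA gave -1.36 for Slc2a1 (-2.21 to -0.51, adjusted p = 0.0678), 3.04 for Slc2a2 (0.57 to 5.51, adjusted p = 0.165) and 1.72 for Abcc8 (-0.33 to 3.76, adjusted p = 0.362), with 2.72% of all genes called and none of the 6. With the replicate block within culture, Slc2a1 (-1.54, adjusted p = 0.00491) and Abcc8 (2.04, adjusted p = 0.0189) passed in the latter comparison.

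In the edgeR fit, the Slc2a1 calls turned on WT Ngn3+Pdx1+MafA replicate 3, the only triple-positive sample kept at passage 5. It held 144 CPM of Slc2a1, 0 of Slc2a2 and 60.6 of Abcc8, against 26.04 to 51.9, 1.94 to 42.7 and 338 to 643 in the other 4 triple-positive samples. Without it, Slc2a1 passed when MafA was added (edgeR adjusted p = 0.00322) and when Pdx1 was added (0.0023), and Slc2a2 passed when MafA was added (0.0203). The calls also turned on the method. With that sample kept, DESeq2, limma-voom and the fit with no gene filter called Slc2a1 in both additions, and Slc2a2 when MafA was added. Both additions are measured against the same triple-positive samples, so they are not independent of each other. Between Ngn3+Pdx1 and Ngn3+MafA cells, none of the 6 genes passed, none had an unadjusted p under 0.05, and 0.133% of all genes passed. The difference nearest to passing there was that of Kcnj11 (2.18, 95% interval -0.41 to 4.78).

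In cells with Ngn3, the phospho-mutant and the wild-type factor were compared over the 3 combinations. WT Ngn3+Pdx1+MafA included a passage 5 sample and 6SA Ngn3+Pdx1+MafA did not, and the part of passage was not tested. The mean of condition means was 11.4 against 1.00 CPM for Slc2a2 (log2 fold change 2.65, 95% interval 0.64 to 4.66, edgeR adjusted p = 0.78) and 32.6 against 5.24 for G6pc2 (2.80, 0.13 to 5.47, adjusted p = 0.812). The 32.6 rested largely on 6SA Ngn3+Pdx1+MafA replicate 1 (150.2 CPM), where 1 library held 2112 of 2215 counts. Slc2a1 had 89.1 against 137 CPM (-0.62, -1.28 to 0.04, adjusted p = 0.863). Abcc8 had 284 against 156 CPM (0.89, -0.73 to 2.52) and Kcnj11 6.44 against 2.74 (0.85, -1.27 to 2.97). None of the 6 and 0.00% of all genes passed, and 2 of the 6 and 5.92% of all genes had an unadjusted p under 0.05.

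The same contrast between Ngn3-negative cells of the 2 kinds of culture gave a log2 fold change of 3.20 for Slc2a2 (0.630 against 0.0783 CPM, 95% interval 0.43 to 5.98, edgeR adjusted p near 1). It gave 0.15 for Slc2a1 and 0.77 for Abcc8. No gene of the 6 and 0.00% of all genes passed. The effect of Ngn3 in 6SA cultures minus that in WT cultures was -0.55 for Slc2a2 (-2.43 to 1.32), -0.78 for Slc2a1 (-1.74 to 0.19), 0.12 for Abcc8 (-4.01 to 4.25) and 0.18 for Txnip (-0.76 to 1.11), with 0.00% of all genes called. For G6pc2 and Kcnj11 this difference had no usable standard error, since conditions without Ngn3 held no count in both kinds of culture, on opposite sides of the difference. Their edgeR adjusted p near 1 is therefore not informative.

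Without Ngn3, the highest Abcc8 levels were in replicate 1 of cells with Pdx1. Cells with Pdx1 had 0 to 31.7 CPM and cells with Pdx1+MafA 0.722 to 36.5, against 0 to 1.44 with MafA alone. Replicate 2 had 0 (WT) and 2.25 CPM (6SA) with Pdx1, and 4.18 and 1.16 with Pdx1+MafA. Libraries of replicate 1 ran from 11.2 to 60.4 CPM in WT Pdx1 and from 2.92 to 43.2 in 6SA Pdx1. Adding Pdx1 to MafA gave a log2 fold change of 4.997 (95% interval 1.96 to 8.04) and setting Pdx1 against MafA gave 5.17 (2.04 to 8.31), both with an edgeR adjusted p near 1 and with 0.00% of all genes called. Over the alternatives the former ran from 3.75 to 6.84 and the latter from 0.02 to 7.02. With the replicate block within culture, the former was 5.32 (adjusted p = 0.0299). DESeq2 called Abcc8 and Kcnj11 when Pdx1 was added to MafA, among 27 genes in all. Adding MafA to Pdx1 gave -0.18 for Abcc8 (-2.34 to 1.99), with none of the 6 genes and 0.00% of all genes called.

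Abcc8, G6pc2 and Txnip were lower at the later passage of the organoids, and the other 3 genes did not pass. All replicate 3 samples were at passage 5 and all others at passage 2, so passage and replicate 3 cannot be told apart. In Ngn3-positive cells, Abcc8 had 10.5 to 68.3 CPM in the 5 samples at passage 5 and 45.6 to 643 in the 12 at passage 2. G6pc2 had at most 0.637 CPM at passage 5 and up to 150.2 at passage 2, where the replicate 2 samples had at most 7.99. Neurog3 itself had 7.87 to 38.8 CPM at passage 5 and 34.9 to 329 at passage 2.

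With condition in the model, the log2 fold change of passage 5 over passage 2 was -2.98 ± 0.68 for Abcc8 (edgeR adjusted p = 0.00869), -6.005 ± 1.64 for G6pc2 (0.0284) and -0.91 ± 0.23 for Txnip (0.0173). The fit counts the passage 5 samples as independent, although all of them carry the same replicate number. In this comparison 5.07% of all genes were lower, and the median of all genes was -0.263. Kcnj11 had -3.18 ± 1.09 (adjusted p = 0.0689), Slc2a2 -1.77 ± 1.06 (0.281) and Slc2a1 0.22 ± 0.29 (0.664). The G6pc2 call ended with the first technical repeat (0.0913) and with limma-voom (0.303), and the Txnip call with spike-in library sizes (0.215). The part of the Neurog3 level in these differences was not tested.

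**Figure D3:**
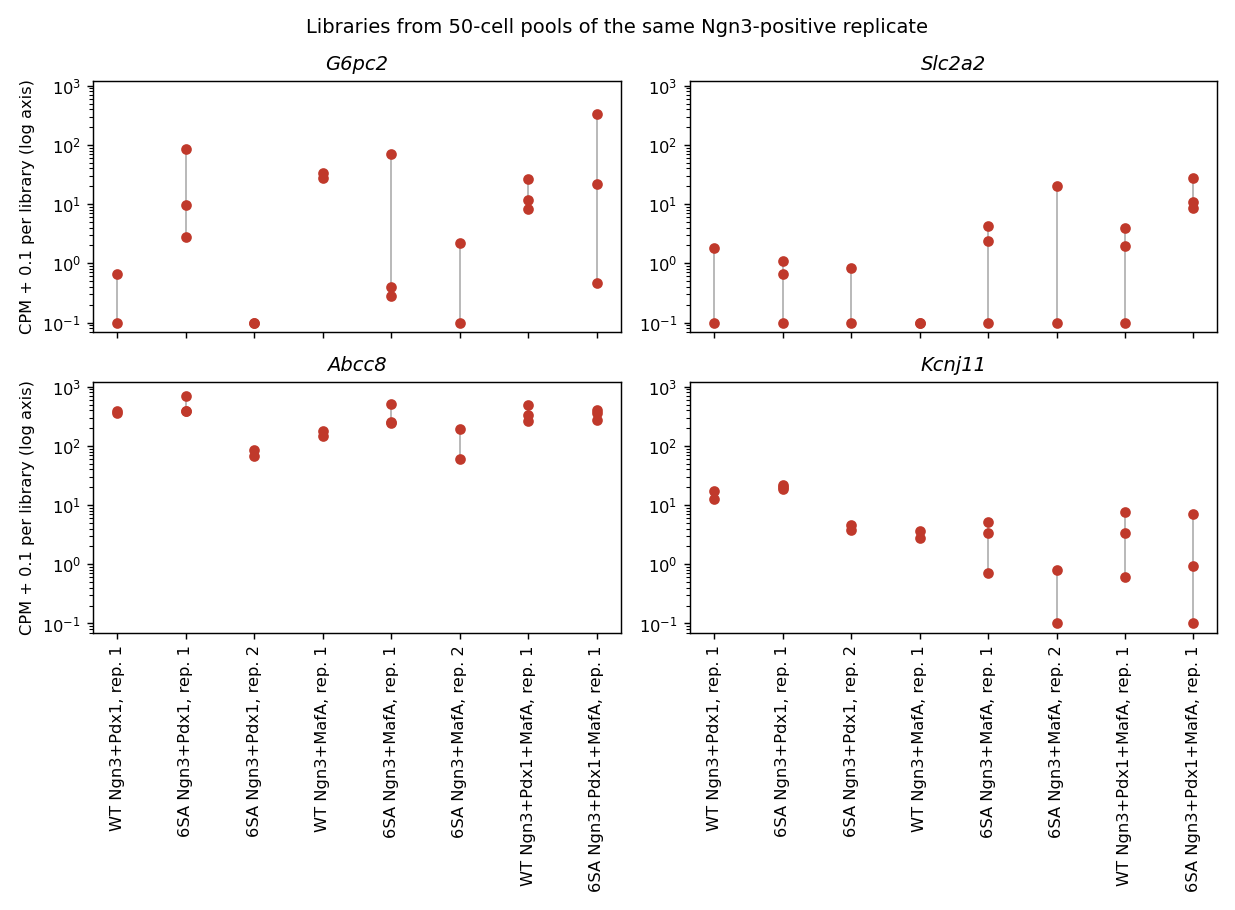
CPM of G6pc2, Slc2a2, Abcc8 and Kcnj11 in the separate libraries of the 8 Ngn3-positive replicates that kept 2 or 3 libraries, on a log axis after adding 0.1. Points joined by a line are libraries of 1 replicate: the highest Abcc8 library was at most 3.22 times the lowest in each, and G6pc2 ran from 0.372 to 339 CPM in 1 of them.

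Libraries of the same replicate showed how evenly each gene was spread over pools of 50 cells. G6pc2 in 6SA Ngn3+Pdx1+MafA replicate 1 had 2112, 102 and 1 counts (339, 21.7 and 0.372 CPM) in its 3 libraries. In 6SA Ngn3+MafA replicate 1 it had 449, 1 and 1 counts, and in 6SA Ngn3+Pdx1 replicate 1 it had 19, 59 and 532. WT Ngn3+MafA replicate 1 had 167 and 170 counts. A single library carried most of the G6pc2 counts in 3 of these 4 replicates.

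Abcc8 was even by comparison in Ngn3-positive replicates, with 407, 364 and 269.6 CPM in the same 3 libraries of 6SA Ngn3+Pdx1+MafA replicate 1. Without Ngn3 it was less even, with a 14.8-fold range between the libraries of 6SA Pdx1 replicate 1. Kcnj11 had 132, 137 and 124 counts in the libraries of 6SA Ngn3+Pdx1 replicate 1, but 43, 4 and 0 in those of 6SA Ngn3+Pdx1+MafA replicate 1. Slc2a2 had 152 and 0 counts in the libraries of 6SA Ngn3+MafA replicate 2. Over the 17 replicates with more than 1 library, the highest library exceeded the lowest by a median of 1.41 times for Slc2a1 and 1.67 times for Txnip.

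Conditions were ordered by their mean level. Slc2a1 ran from 335 ± 162 CPM (SD, n = 2) in 6SA Pdx1 to 43.9 ± 11.4 (n = 2) in 6SA Ngn3+Pdx1+MafA, with the 6 Ngn3-negative conditions in the first 6 places. Slc2a2 was highest in 6SA Ngn3+Pdx1+MafA (27.4 CPM), followed by 6SA Ngn3+MafA (6.53) and WT Ngn3+Pdx1+MafA (2.35). G6pc2 was highest in 6SA Ngn3+Pdx1+MafA (79.1 CPM, from samples of 150.2 and 7.99), and 4 conditions followed between 6.22 and 9.43. No neighbours in these orders differed beyond the spread of their samples, for any of the 6 genes except 1 of 11 neighbouring pairs for Txnip.

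**Figure D4:**
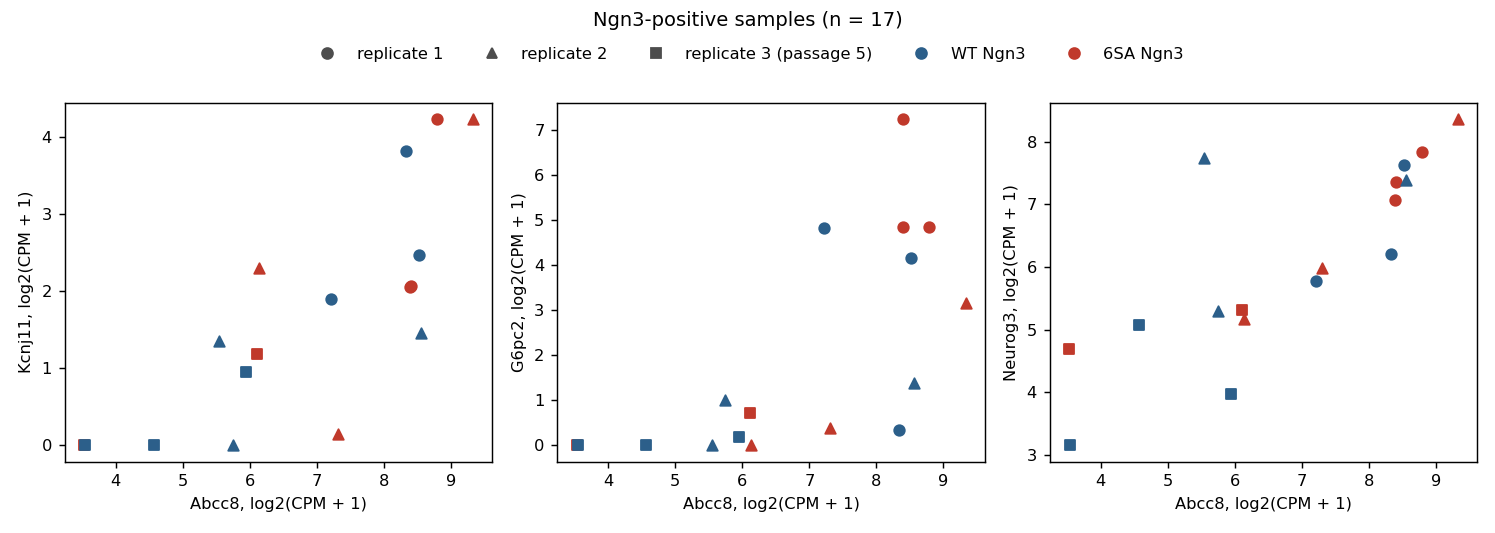
Log2(CPM + 1) of Kcnj11, G6pc2 and Neurog3 against that of Abcc8 in the 17 Ngn3-positive samples, with the replicate as marker and WT (blue) or 6SA (red) as colour. All 3 rose along Abcc8, the passage 5 samples sat at the left, and G6pc2 was scattered between 0 and its highest values where Abcc8 was high.

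Within the Ngn3-positive samples the channel subunits rose and fell together. Over the 17 samples, log2(CPM + 1) of Abcc8 and Kcnj11 had a Pearson r of 0.787 and a Spearman rho of 0.84 (permutation adjusted p = 0.00231 and 0.00168 over 21 relations). Without the 2 samples farthest from the median of Abcc8, r was 0.743, and within passage 2 it was 0.655 over 12 samples, the 5 samples at passage 5 being fewer than the 6 required for a correlation. The Neurog3 level went with Abcc8 too (r = 0.808, rho = 0.801, permutation adjusted p = 0.00189 and 0.0021, and r = 0.619 within passage 2). It also went with Kcnj11 (r = 0.679, rho = 0.745, permutation adjusted p = 0.0196 and 0.0043, and r = 0.503 within passage 2). These samples share a factor level, a passage, a culture and a replicate number, and the part of each was not tested. The permutations exchanged all 17 samples freely and kept none of these groupings.

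Abcc8 and G6pc2 had r = 0.67 and rho = 0.787 (permutation adjusted p = 0.0196 and 0.0021), with r = 0.567 within passage 2. Slc2a1 and Slc2a2 ran opposite to each other, with r = -0.603 and rho = -0.553 (permutation adjusted p = 0.0444 and 0.0706), with r = -0.51 without the 2 farthest samples and -0.576 within passage 2. Over all 32 samples and 11688 candidate genes, the genes most like Abcc8 by Pearson r of log2(CPM + 1) were Clip3, Dll4 and Pde1c (each 0.95). Those most like Slc2a1 were Cttn (0.94), Icam1 (0.93) and Gcnt2 (0.92), and those most like Kcnj11 were Ngfr (0.86), Col9a3 (0.85) and Gpr179 (0.84). For Txnip they were Zfp869 (0.81), Mctp2 and Soat1 (0.78 each), and for Slc2a2 Ralgds (0.80), Crybg3 (0.78) and Specc1l (0.77). G6pc2 was detected in 14 of 32 samples, under the share required, and was given no such list.

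**Figure D5:**
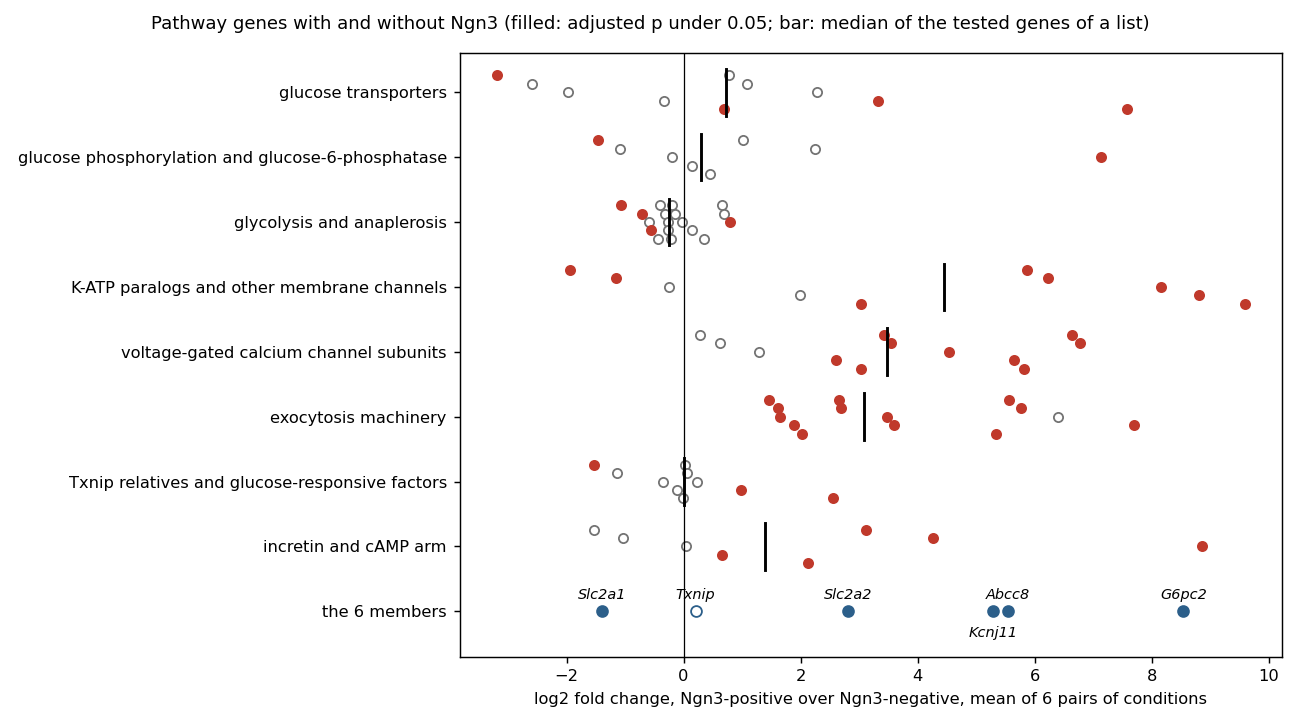
Log2 fold change over all 6 pairs for the tested genes of 8 lists around the glucose-sensing pathway and for the 6 genes followed here (bottom row), filled where the adjusted p was under 0.05, with a bar at the median of each list. Nearly all calcium channel and exocytosis genes lay right of 0, and glycolysis genes lay around it.

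The genes around these 6 were taken from lists fixed by function, and their counts stand beside the 11.1% higher and 10.5% lower among all genes and a median log2 fold change of 0.072. Of 10 other sugar transporters tested, 3 rose and 1 fell over all pairs (median 0.73). Slc2a5, a fructose transporter, rose by 7.57 ± 0.60 (edgeR adjusted p = 4.12e-10), Slc2a8 by 0.68 ± 0.20 (0.0135), and the sodium-coupled transporter Slc5a1 fell by 3.19 ± 0.64 (0.000491). Of 8 genes of glucose phosphorylation and glucose-6-phosphatase, 1 rose and 1 fell (median 0.29). The hexokinase gene Hk2 fell by 1.46 ± 0.27 (edgeR adjusted p = 0.00018).

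Of 18 glycolysis genes, 1 rose and 3 fell (median -0.24), among them Ldha, lactate dehydrogenase A (-1.07 ± 0.17, adjusted p = 2.42e-05), Eno1 (-0.56 ± 0.15, 0.00906) and Gpd2, the mitochondrial glycerol-phosphate dehydrogenase (0.80 ± 0.22, 0.009).

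Of 10 other membrane channel genes, 6 rose and 2 fell (median 4.45). Kcnma1, of a calcium-activated potassium channel, rose by 9.60 ± 0.68 (edgeR adjusted p = 2.03e-10), Kcnk16, of the islet potassium channel TALK-1, by 8.81 ± 0.71 (6.69e-10), and Kcnq1 fell by 1.94 ± 0.26 (2.21e-06). Of 12 voltage-gated calcium channel subunits, 9 rose and none fell (median 3.48), with Cacna2d1 at 4.53, Cacna1d at 5.82 and Cacna1c at 6.78. Of 14 exocytosis genes, 13 rose and none fell (median 3.09), with the calcium sensor Syt7 at 7.70 and the complexin Cplx2 at 5.56. Beside Pdx1 and MafA, all 14 of them rose.

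Of 10 relatives of Txnip and glucose-responsive genes, 2 rose and 1 fell (median 0.01). Mlxipl, which encodes the carbohydrate-responsive factor ChREBP, rose by 2.55 ± 0.60 (edgeR adjusted p = 0.00218), Acly by 0.98 ± 0.24 (0.0035), and Thbs1 fell by 1.52 ± 0.30 (0.000408). Of 8 genes of the incretin and cAMP arm, 5 rose and none fell (median 1.40), with the cAMP sensors Rapgef4 at 8.86 and Rapgef3 at 2.13 and the incretin receptor Gipr at 4.27. Beside Pdx1, where 1.32% of all genes were higher, the lists had between 0 and 6 higher calls each, and beside Pdx1 and MafA, where 9.42% were, between 1 and 14.

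The summed levels of other cell type markers are given beside these results, without a test. The 8 beta cell markers, which include the vector factors Pdx1 and Mafa, summed to 4.89 to 1964 CPM with Ngn3 and 10.2 to 84.3 without, where Ins1, Ins2, Ucn3 and Slc30a8 were at 0. The 4 delta cell markers summed to 54.2 to 31849 CPM with Ngn3 and 59.9 to 559 without, the 2 epsilon and PP markers to 10.8 to 4945 and 0 to 2.24, and the 6 alpha cell markers to 14.2 to 555 and 2.61 to 62.3. The 6 cycling markers had medians of 110.3 and 360 CPM, the 5 hepatocyte-like markers 43.5 and 18.1, the 4 leukocyte markers 14.2 and 14.2, the 8 acinar markers 0.972 and 5.05, the 6 mesenchyme markers 0 and 0.672 and the 4 endothelial markers 0.674 and 0.143. The part of endocrine and duct content in the levels of the 6 genes was not tested.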

How the data were processed

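Libraries were made by Smart-seq2 from sorted pools of 50 cells, tagmented with Nextera XT and read as single ends of 50 bases. The authors aligned the reads with GSNAP to mm10 and counted them per gene with HTSeq (0.5.3p3) on Ensembl release 81, and they deposited whole-number counts per gene and library, with 92 spike-in sequences. Rows that name no gene held 6.42% to 27.8% of a library's reads as no feature and were left out. Of 61 libraries, 58 passed more than 1000000 gene counts, under 25% spike-in reads and over 10000 genes detected. Technical repeats were summed, which gave 32 samples, and 24004 genes seen in at least 5 libraries with a variance over 0.001 were tested.

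The test was edgeR's quasi-likelihood test (edgeR 4.0.16, limma 3.58.1, R 4.3.3) with TMM scaling and 1 term per condition, and p-values were adjusted by Benjamini-Hochberg over all genes (call under 0.05). The fit was tested on simulated data. A comparison over several conditions is the mean of their log2 fold changes. Lower bounds of folds use 3 counts per sample, and intervals are at 95%. Correlations used log2(CPM + 1) with 100000 permutations (two-sided). Alternatives were DESeq2 (1.42.0), limma-voom, RLE and spike-in scaling, other gene filters, all libraries, the first technical repeat, only the conditions compared, a replicate block, samples left out, and, added after seeing the data, a passage term, a shared Ngn3 term and lower bounds without the sample of highest level.

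Same-numbered samples deviated together, with every correlation over 0.1, in 8 of 12 comparisons (for example 0.523 to 0.746 where Ngn3 was added to Pdx1, 0.283 to 0.418 beside MafA and 0.156 to 0.438 where Pdx1 was added to Ngn3 and MafA), and not over all pairs (lowest -0.387). The pairing rests on this check of the counts alone. Genes named in the text are the 6 followed here, up to 3 per pathway list with the lowest adjusted p over all pairs, the 3 most alike for each gene detected in enough samples, and the 3 factors, apart from some list genes that are not reported here. The 6 genes and the lists were chosen with earlier results of these data known.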

Additional observations from a re-analysis of the deposited data

Results flagged for a closer look

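The 3 libraries left out for low depth or quality held signal of Abcc8 and Slc2a2 above every Ngn3-negative library (highest 60.4 CPM for Abcc8 and 6.60 for Slc2a2). Abcc8 had 519 CPM (325 counts) in the first library of WT Ngn3+Pdx1+MafA replicate 2, 281.5 CPM (68 counts) in the second library of 6SA Ngn3+Pdx1+MafA replicate 2, and 119.9 CPM (49 counts) in the only library of 6SA Ngn3+Pdx1+MafA replicate 3. Slc2a2 had 25.6 CPM (16 counts) in the first of these and 9.79 CPM (4 counts) in the last. All 3 libraries carried all 3 factors, and 3 counts corresponded to up to 12.4 CPM in them.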

How the results depend on the processing

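No direction that had passed was reversed in the alternatives run. Of the 6 genes, 5 passed over all pairs and between 3 and 5 when samples were left out, with 3 for the shared Ngn3 term without replicate 2. Beside Pdx1, 0 passed (0 to 1 with samples left out), against 2 with DESeq2, 4 with no gene filter, 3 with a replicate block of either form, 1 with the newer edgeR fit and 2 with a passage term. Beside MafA, 1 passed (0 to 3), against 2 with DESeq2, spike-in scaling, only the conditions compared or the shared Ngn3 term, and 3 with no filter, a replicate block of either form or a passage term. Beside Pdx1 and MafA, 4 passed (2 to 4), against 2 with spike-in scaling, 3 with DESeq2 (which gave G6pc2 no adjusted p) or the first technical repeat (Slc2a2 at adjusted p = 0.198), and 5 with no filter or the replicate block within culture, which added Kcnj11 (adjusted p = 0.0424 and 0.0496). Where MafA was added to Ngn3 and Pdx1, 0 passed (0 to 2), against 2 with DESeq2, limma-voom or a replicate block of either form, 4 with no filter and 1 with the newer fit. Where Pdx1 was added to Ngn3 and MafA, 0 passed (0 to 1), against 1 with DESeq2, limma-voom or all libraries, 3 with no filter and 2 with the newer fit or a replicate block of either form. With no filter, 1 passed between Ngn3+Pdx1 and Ngn3+MafA, 1 between 6SA and WT Ngn3, 1 in the difference of Ngn3 effects, and, without Ngn3, 1 for Pdx1 against MafA and 1 for Pdx1 added to MafA. Without Ngn3, DESeq2 called 1 between 6SA and WT cultures, 1 for Pdx1 against MafA, 1 for MafA added to Pdx1 and 2 for Pdx1 added to MafA, only the conditions compared gave 1 for Pdx1 against MafA, and the replicate block within culture gave 1 for Pdx1 added to MafA. The cause was not tested.

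Over all genes, 5168 passed over all pairs (3294 with spike-in scaling, 2085 to 5898 with samples left out), 358 beside Pdx1 (216 with spike-in scaling to 1273 with no filter, 16 to 696), 1121 beside MafA (636 with spike-in scaling to 2123 with a replicate block, 138 to 1197), 4279 beside both (1945 with spike-in scaling, 880 to 4767), 451 where MafA was added (80 with spike-in scaling to 1454 with no filter, 16 to 1179), 654 where Pdx1 was added (49 with spike-in scaling to 2137 with a replicate block within culture, 0 to 1619), 32 between Ngn3+Pdx1 and Ngn3+MafA (17 with spike-in scaling to 634 with no filter, 0 to 337) and 1975 with passage (325 with spike-in scaling to 4142 with DESeq2). The comparisons with 0 calls had at most 239 between 6SA and WT Ngn3 (no filter, 26 with DESeq2), 8 between cultures without Ngn3 (DESeq2), 123 for Pdx1 against MafA (only the conditions compared), 28 for MafA and 61 for Pdx1 added without Ngn3, and 101 and 126 in the differences of Ngn3 effects (no filter). Spike-in scaling moved the median of all genes over all pairs from 0.072 to -0.103. At 3 counts per sample, levels under 0.136 to 1.01 CPM could not be told from 0.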
